A study of Arabidopsis thaliana with 6 samples.

Results

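The genes described here passed a set level in seedlings of the pvip1 pvip2 double mutant of Arabidopsis thaliana and stayed under a lower one in wild-type seedlings. They were chosen by their measured levels: a probe set, the group of oligonucleotides that reads 1 gene on the array, had to be named with 1 gene, reach a log2 signal of at least 6 on all 3 pvip1 pvip2 arrays and stay under 4 on all 3 Col-0 arrays. Of 22746 probe sets other than controls, 29 met both levels (0.127%), of which 15 were named with 1 gene and 14 were unnamed here. Among the 15 named genes, 7 belong to families that were left out by the rule: 3 C1-domain proteins, 2 class III peroxidases, 1 malectin-domain receptor kinase and 1 berberine bridge enzyme-like oxidase. The remaining 8 genes, of 13513 named with 1 gene, are F6'H1, GIM2, NPF4.4, ATL41, AT3G51330, AT1G18980, AT5G46230 and AT2G44010. Since every array has to pass, leaving out an array can only add genes, and without pvip1 pvip2 replicate 1 the rule gives 15.

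RNA of pvip1 pvip2 seedlings and of seedlings of Col-0, the wild type, was measured on Affymetrix ATH1 arrays, with 3 samples of each labelled as biological replicates. The plants grew on agar plates and were taken 10 days after germination, with no further treatment named. The mutants were cut at the vestigial hypocotyl, as a control for wounding, and Col-0 lost its roots, so the tissues in the samples can differ between the genotypes. The labels name no alleles and do not say how many plants made up a sample. PVIP genes encode PHD-finger proteins, also called OBERON proteins, which act in the formation of meristems.

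F6'H1 and GIM2 encode 2-oxoglutarate-dependent dioxygenases, soluble enzymes that use iron and oxygen to modify small molecules such as hormones, coumarins and flavonoids. ATL41 belongs to a family of membrane-bound RING-H2 ubiquitin ligases that mark proteins for breakdown, and AT3G51330 encodes an aspartyl protease of the pepsin type. NPF4.4 belongs to the NPF family of membrane proteins that carry nitrate, peptides, hormones or glucosinolates. AT1G18980 encodes a germin-like protein of the cupin fold, a class often found in the extracellular matrix. AT5G46230 encodes a protein with the DUF538 domain, whose role is unknown, and no role is known for AT2G44010.

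GIM2 (AT2G36690) had the largest difference of the 8 between the genotypes. Its name comes from mutants whose germination is insensitive to abscisic acid. Its log2 signals were 8.45, 8.80 and 8.35 in pvip1 pvip2 replicates 1, 2 and 3, against 3.51, 3.61 and 3.74 in Col-0 replicates 1, 2 and 3. The lowest mutant array lay 4.61 above the highest Col-0 array, the widest gap among the 8 genes. The means were 8.53 ± 0.24 in pvip1 pvip2 and 3.62 ± 0.11 in Col-0 (SD, n = 3 each), a log2 difference of 4.91. In RNA of whole samples, a gene expressed by more cells and a gene with more RNA in each cell cannot be told apart.

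F6'H1 (AT3G13610) encodes feruloyl-CoA 6'-hydroxylase, the enzyme that commits the phenylpropanoid pathway to the coumarin scopoletin. Scopoletin and its relatives are known as root-secreted compounds that mobilise iron and as antimicrobial compounds of leaves. The gene stood at 7.96, 7.96 and 8.48 in the mutant arrays, against 3.68, 3.63 and 3.97 in the Col-0 arrays. Both genotypes had their highest value in replicate 3, and the value of Col-0 replicate 3 was the closest of all 8 genes to the level of 4. The means of 8.13 ± 0.30 in pvip1 pvip2 and 3.76 ± 0.19 in Col-0 (SD, n = 3 each) differed by 4.37 on the log2 scale.

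The transporter gene NPF4.4 (AT1G33440) gave 6.08, 6.49 and 6.21 in pvip1 pvip2 and 3.49, 3.17 and 3.17 in Col-0. With means of 6.26 ± 0.21 in pvip1 pvip2 and 3.27 ± 0.19 in Col-0 (SD, n = 3 each), the mutant exceeded Col-0 by 2.99 on the log2 scale.

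The genes of protein turnover were ATL41 and AT3G51330. ATL41 (AT2G42360) gave 6.54, 6.84 and 6.68 in pvip1 pvip2 and 3.54, 2.82 and 3.27 in Col-0, and its mutant arrays lay closest together of all 8 genes (SD 0.15, n = 3). Its mean difference was 3.47 on the log2 scale. AT3G51330, the aspartyl protease gene, gave 6.61, 6.41 and 7.28 in pvip1 pvip2 and 3.13, 3.04 and 3.42 in Col-0. Here pvip1 pvip2 replicate 3 stood apart from the other mutant arrays, and the SD of 0.45 (n = 3) was the largest in the mutant. The mean difference of AT3G51330 was 3.57 on the log2 scale.

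The germin-like gene AT1G18980 gave 7.22, 6.86 and 6.80 in pvip1 pvip2 and 3.26, 2.74 and 3.39 in Col-0. It was the only 1 of the 8 with its highest mutant value in replicate 1, and Col-0 replicate 2 was its lowest Col-0 array. Its mean difference was 3.83 on the log2 scale.

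Of the genes without an assigned role, AT5G46230 gave 6.16, 6.95 and 6.68 in pvip1 pvip2 and 3.5, 3.48 and 3.84 in Col-0. AT2G44010 gave 6.07, 6.55 and 6.57 in pvip1 pvip2 and 2.93, 3.22 and 3.73 in Col-0. Replicate 1 was the lowest mutant array for both, and replicate 3 the highest Col-0 array. The mean differences were 2.99 for AT5G46230 and 3.10 for AT2G44010 on the log2 scale, and their gaps between the genotypes, 2.32 and 2.34, were the narrowest of the 8.

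**Figure D1:**
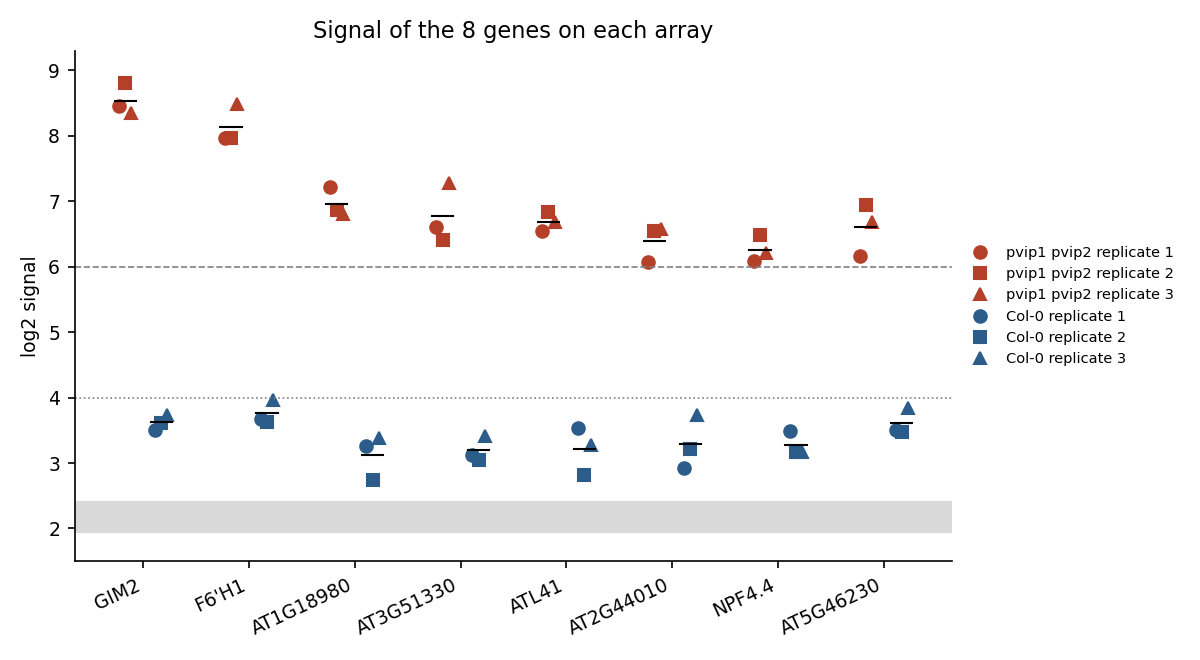
Log2 signal (vertical axis) of the 8 genes on each array, with pvip1 pvip2 in red left of Col-0 in blue, a symbol per replicate and a black line at each genotype mean. The dashed line is the level of 6 and the dotted line the level of 4 that chose the genes, and the grey band spans the trp control probe sets over all arrays (1.94 to 2.40). All mutant values lie between 6.07 and 8.80 and all Col-0 values between 2.74 and 3.97.

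Over the 8 genes, the log2 difference lay between 2.99 and 4.91 with a median of 3.52, beside a median of -0.05 over all 13648 probe sets above the filter on low signal. These differences are a description without a test, since the levels on these same arrays chose the genes. In the same way the choice fixes that the genotypes do not overlap, which 17.4% of the tested probe sets show with the mutant higher. With 64 added to the linear signal before the logarithm, the differences shrank to between 0.93 and 2.51, since the amount added is larger than any of the Col-0 signals. On the first fluidics station alone, which held 2 arrays of each genotype, they lay between 2.96 and 5.06.

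The deposited table has no detection call, so whether Col-0 held any transcript of the 8 genes is not known from it. Their Col-0 means of 3.13 to 3.76 all lay under the filter on low signal (3.81), and the differences above are therefore given on the log2 scale without a fold. The 3 control probe sets for a bacterial trp gene gave 1.96 to 2.33 in pvip1 pvip2 and 1.94 to 2.40 in Col-0. Probe sets differ in how they bind, so no order between these controls and the 8 genes is read from the values.

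Values under 4 were common in Col-0 and a step past 6 was rare. In Col-0 9085 probe sets, or 39.9%, were under 4 on all 3 arrays, and 0.319% of those reached 6 on all mutant arrays. The mirror pattern, at least 6 on all Col-0 arrays and under 4 on all mutant arrays, was met by 4 probe sets, of which 1 was named with 1 gene.

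Just inside the level for Col-0 lay F6'H1, AT5G46230 and GIM2, with highest Col-0 values of 3.97, 3.84 and 3.74. Just outside it lay the chitinase gene AT4G01700 with 4.01, AT3G46280 with 4.12 and PUB23, a U-box ubiquitin ligase gene, with 4.14. AT4G01700 and AT3G46280 belong to families that the rule leaves out in any case. Just inside the level for the mutant lay AT2G44010, NPF4.4 and AT5G46230, whose lowest mutant values were 6.07, 6.08 and 6.16. Just outside it lay AT5G12420 with 5.999, AT2G23540 with 5.94 and AT1G65690 with 5.91.

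The 8 genes did not share a common order among replicates. In pvip1 pvip2 4 genes were lowest in replicate 1, 2 in replicate 2 and 2 in replicate 3, and 4 were highest in replicate 2. Over the 6621 probe sets at 6 or more on all mutant arrays, replicate 1 was the lowest in 50.4% and replicate 2 the highest in 36.4%. By contrast, the 7 genes left out by family were all lowest in replicate 1, and 6 of them were highest in replicate 2. The SD over the mutant arrays ran from 0.15 to 0.45 with a median of 0.26 for the 8 genes, and had a median of 0.66 for those 7 and of 0.22 over all tested probe sets. No test was made of these counts and spreads.

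In Col-0 6 of the 8 genes were highest in replicate 3, where 25.5% of all probe sets under 4 were highest. A measure of RNA integrity differed between the arrays as well. The log2 signal of the GAPDH control was higher at the 3' end than at the 5' end by 0.88, 0.55 and 0.91 in pvip1 pvip2 and by 1.08, 0.97 and 2.31 in Col-0, so Col-0 replicate 3 stood apart. The part of RNA quality in these low values was not tested. Without Col-0 replicate 3 the differences of the 8 genes were 2.93 to 4.97, and the rule gives 10 genes. OBE1 (AT3G07780), a PVIP gene, had a log2 signal of 2.53 to 2.61 in the mutant and of 5.08 and 5.17 in Col-0 replicates 2 and 3, but of 2.42 in the array labelled Col-0 replicate 1. Without that array the differences of the 8 genes were 2.92 to 4.86, and the rule gives 10 genes.

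**Figure D2:**
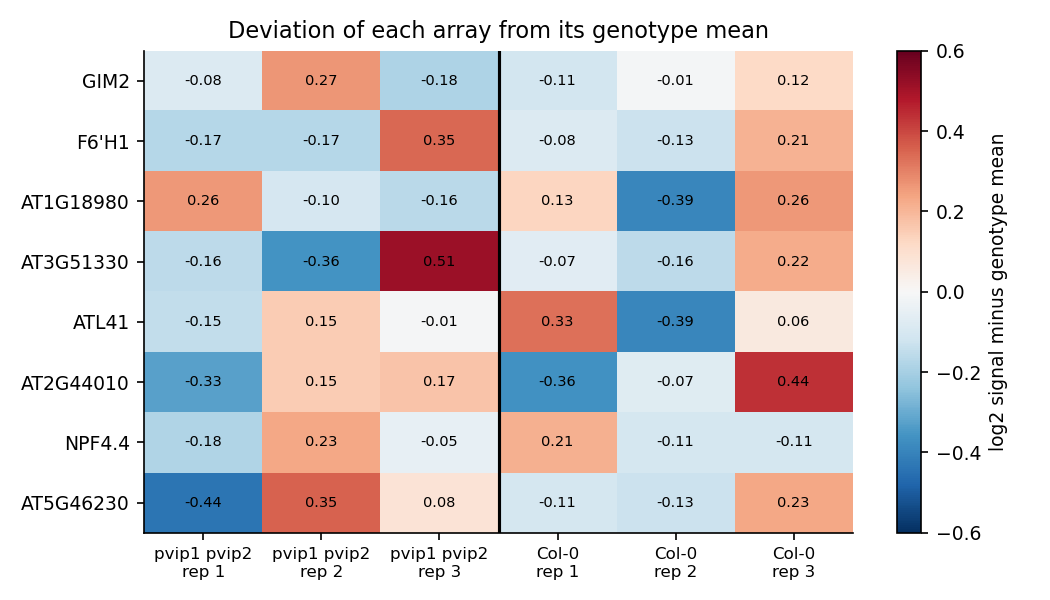
Log2 signal of each gene on each array minus the mean of its genotype (colour and printed value), for the 3 pvip1 pvip2 arrays on the left and the 3 Col-0 arrays on the right. AT3G51330, F6'H1 and AT2G44010 are highest in pvip1 pvip2 replicate 3, AT1G18980 is highest in replicate 1, and Col-0 replicate 3 is the highest Col-0 array for 6 of the 8 genes.

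The harvested tissue was checked against markers. Of 7 leaf mesophyll markers 3 were named, the photosynthesis genes RCA, LHCB4.1 and PRK, and limma with Benjamini-Hochberg adjustment over all 13648 probe sets called none of them at an adjusted p under 0.05. Their log2 signals were 10.24 to 12.63 in pvip1 pvip2 and 10.82 to 12.82 in Col-0, and their summed linear signal was 10000 to 13200 in pvip1 pvip2 and 13500 to 15900 in Col-0. All 3 had lower means in pvip1 pvip2, RCA at -0.30 and LHCB4.1 at -0.33. LHCB4.1 did not overlap, with 12.21, 12.22 and 12.14 in pvip1 pvip2 against 12.51, 12.41 and 12.65 in Col-0 (limma adjusted p = 0.05534). PRK was 0.59 lower in pvip1 pvip2, with means of 10.53 in pvip1 pvip2 and 11.12 in Col-0 (limma adjusted p = 0.1481, and 0.01148 with the replicate number as a block).

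Of 20 root markers 3 were named, with a summed signal of 3500 to 3580 in pvip1 pvip2 and 1030 to 1090 in Col-0. Most of that sum came from PYK10, the gene of an ER-body glucosidase of roots and hypocotyls, whose log2 signals were 11.78, 11.76 and 11.80 in pvip1 pvip2 against 10.06, 10.01 and 9.98 in Col-0 (difference 1.76, SE 0.10, limma adjusted p = 8.862e-05). The root hair expansin genes EXPA7 and EXPA18 were at 3.10 to 3.63 in Col-0. In pvip1 pvip2 EXPA7 gave 3.35, 4.29 and 3.23 and EXPA18 gave 3.40, 4.23 and 3.30, so replicate 2 stood apart. Their means over all arrays lay below the filter on low signal. F6'H1 is itself best known from roots. The part of tissue make-up in the levels of the 8 genes was not tested.

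The families of the 8 genes, with the coumarin and general phenylpropanoid pathways around F6'H1, were then read on the same arrays. The lists were drawn up after the 8 genes were known, by family or pathway alone. Over the whole array limma called 20.5% of 13648 tested probe sets, 10.4% higher and 10.2% lower in pvip1 pvip2. That count was 2803, and was 1745 without pvip1 pvip2 replicate 2, 1797 without pvip1 pvip2 replicate 3 and 1661 when Col-0 replicate 2 was left out. Of these family and pathway lists together, 81 loci were tested, of which 20 were higher and 9 lower (35.8%). Their median log2 difference was 0.20, beside -0.05 over all tested probe sets.

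Among the other 2-oxoglutarate-dependent dioxygenases, 4 of 18 tested genes were higher in pvip1 pvip2 and none was lower (22.2%, median difference 0.27). The replicate block gave 5 higher and none lower, adding AT2G25450 at 0.48 (limma adjusted p = 0.07986, and 0.02809 with the block). AT5G20400 averaged 7.25 in pvip1 pvip2 and 4.5 in Col-0 (difference 2.76, SE 0.30, limma adjusted p = 0.0008315). AT3G19010 averaged 8.78 in pvip1 pvip2 and 6.95 in Col-0 (difference 1.83, SE 0.27, adjusted p = 0.002893). JOX2, which inactivates jasmonic acid by hydroxylation, averaged 5.98 in pvip1 pvip2 and 4.55 in Col-0 (difference 1.43, SE 0.29, adjusted p = 0.01152). The other called gene, AT2G30840, was 1.01 higher (adjusted p = 0.0123, and 0.0525 without Col-0 replicate 2). F6'H2 is the paralog that catalyses the same step as F6'H1. It stood at 3.92, 4.0 and 3.95 in pvip1 pvip2 against 3.96, 3.93 and 3.75 in Col-0. The genotypes overlapped (difference 0.08, SE 0.16, limma adjusted p = 0.7777). The means of F6'H2, 3.96 in pvip1 pvip2 and 3.88 in Col-0, lay near the filter on low signal. They therefore do not show an unchanged gene.

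The coumarin pathway around F6'H1 had 5 named genes of 15, all 5 tested, and 2 were higher in pvip1 pvip2 (median difference 0.09). These were PYK10, listed there as the coumarin glucosidase BGLU23, and COSY, the coumarin synthase that closes the ring after F6'H1 has acted. COSY averaged 7.10 in pvip1 pvip2 and 6.01 in Col-0 (difference 1.09, SE 0.25, limma adjusted p = 0.01841), and its adjusted p was 0.0686 without Col-0 replicate 2, 0.0515 without Col-0 replicate 3. It was 0.0674 when pvip1 pvip2 replicate 2 was left out. S8H, which hydroxylates scopoletin, and the glucosidase gene BGLU42 differed by 0.09 and 0.08 and were not called. The means of S8H, 3.88 in pvip1 pvip2 and 3.79 in Col-0, lay near the filter of 3.81, so they do not show an unchanged gene. Of the general phenylpropanoid pathway that feeds coumarin synthesis, only HCT was named and tested, with a difference of 0.49 (adjusted p = 0.2541, and 0.02996 with the replicate block).

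A close relative of NPF4.4, whose own direction the rule fixed, was called higher in pvip1 pvip2. NPF4.3 gave 8.70, 8.03 and 7.53 in pvip1 pvip2 and 5.39, 4.63 and 5.01 in Col-0, without overlap (difference 3.07, SE 0.32, limma adjusted p = 0.0006877). It missed the rule because its Col-0 level was above 4. The glucosinolate transporter genes NPF2.10 and NPF2.11 were also higher, NPF2.10 by 1.99 with an SE of 0.38 (adjusted p = 0.00961) and NPF2.11 by 1.83 with an SE of 0.28 (adjusted p = 0.003962). These were the 3 called of 6 tested NPF genes (50.0%, median 1.06). Of 26 other NPF loci listed, only 10 were named. NPF6.4 averaged 7.11 in pvip1 pvip2 and 8.58 in Col-0 (difference -1.47, adjusted p = 0.2753, and 0.01498 with the replicate block, which calls it lower), while NPF4.1, NPF4.2 and NPF4.5 were below the filter.

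The aspartyl proteases split in direction. Of 29 tested genes 7 were higher and 6 lower in pvip1 pvip2 (44.8%, median difference 0.22), and with the replicate block 11 were higher and 6 lower. The higher genes AT1G49050 and AT3G54400 lost their call without some single arrays, as did the lower genes AT5G22850, AT1G25510 and AT1G08210. AT1G08210, at -0.61, lost it whichever array was left out (limma adjusted p of 0.0504 to 0.0836). AT5G48430 gave 7.47, 8.71 and 8.68 in pvip1 pvip2 and 4.6, 3.16 and 4.19 in Col-0 (difference 4.30, SE 0.45, limma adjusted p = 0.0006866), a larger difference than that of AT3G51330. AT3G12700 and AT4G16563 were higher by 2.52 (adjusted p = 0.0009081) and 2.27 (adjusted p = 0.001136). In the other direction AT5G07030 averaged 5.57 in pvip1 pvip2 and 8.14 in Col-0 (difference -2.57, SE 0.23, adjusted p = 0.0003831), and AT1G09750 averaged 8.98 in pvip1 pvip2 and 10.20 in Col-0 (difference -1.22, SE 0.20, adjusted p = 0.004623). AT3G51350 and AT3G51360, which lie near AT3G51330 in the gene order, stayed below the filter, with means of 3.06 and 2.77 in pvip1 pvip2 and 2.58 and 2.68 in Col-0.

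Of 13 tested DUF538 genes 3 were higher and none lower (23.1%, median 0.26), and 5 were higher with the replicate block. AT4G24130 averaged 6.24 in pvip1 pvip2 and 4.47 in Col-0 (difference 1.77, SE 0.31, limma adjusted p = 0.006923), and AT1G09310 averaged 12.49 in pvip1 pvip2 and 11.41 in Col-0 (difference 1.08, SE 0.10, adjusted p = 0.0004694). The third, AT1G61667, was 0.63 higher (adjusted p = 0.04031), and its adjusted p was 0.0731 to 0.127 without any 1 array except pvip1 pvip2 replicate 1. The 9 tested ATL genes had 1 higher and 2 lower in pvip1 pvip2 (33.3%, median -0.46). The lower genes were ATL8 at -1.12 (adjusted p = 0.02296) and ATL23 at -1.24 (adjusted p = 0.01535), and the higher one was ATL40, described with the neighbours. The adjusted p of ATL8 was 0.0522 without pvip1 pvip2 replicate 3, and 0.0533 and 0.0789 without Col-0 replicates 1 and 2. That of ATL23 was 0.0526 and 0.0578 without pvip1 pvip2 replicates 2 and 3, and 0.0535 without Col-0 replicate 3. Of the germin-like genes 11 of 31 were named and only AT3G10080 passed the filter, with 5.97 in pvip1 pvip2 and 7.41 in Col-0 (difference -1.44, SE 0.31, adjusted p = 0.01583). Its adjusted p was 0.0513 without pvip1 pvip2 replicate 3, and 0.0571 without Col-0 replicate 2. The rule fixed the direction of AT1G18980, so no contrast with this 1 tested relative is read.

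**Figure D3:**
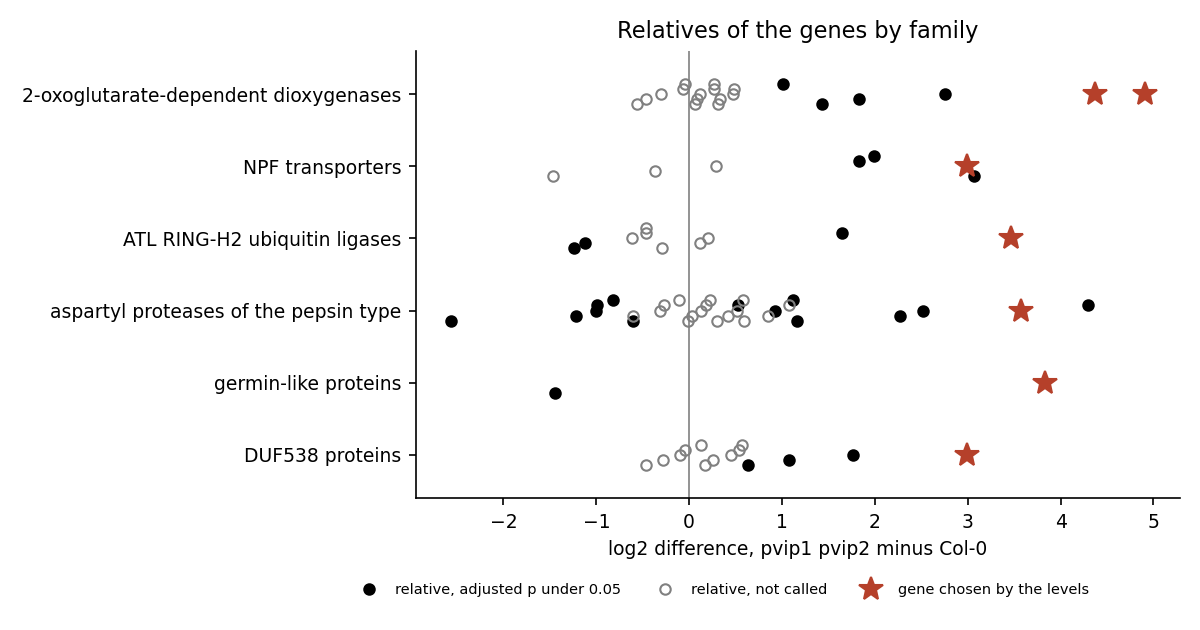
Log2 difference, pvip1 pvip2 minus Col-0, of each tested gene in the families of the chosen genes (stars; AT2G44010 has no family list), with filled circles for called relatives and open circles for the others. Relatives reach from -2.57 (AT5G07030) to 4.30 (AT5G48430), and the chosen genes lie between 2.99 and 4.91, where the rule on their levels puts them.

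Defence and stress lists were read beside the 8 genes. Of 166 listed loci 20 were named and 15 tested, of which 7 were higher and 3 lower in pvip1 pvip2 (66.7%, beside 20.5% over the array, median difference 0.95). Only 3 of 24 WRKY loci were named, 2 of 15 on the pattern-triggered immunity list and 2 of 19 on the salicylic acid list. Most of each of these lists was therefore not seen. The transcription factor genes WRKY6, WRKY22 and WRKY53, the 3 named of the 24 WRKY loci, were higher. WRKY6 was higher by 2.36 with an SE of 0.19 (limma adjusted p = 0.0002321) and WRKY22 by 1.85 with an SE of 0.25 (adjusted p = 0.001954). WRKY53 was higher by 1.27 with an SE of 0.21 (adjusted p = 0.005013). BIK1, a kinase that relays signals of immune receptors, averaged 8.45 in pvip1 pvip2 and 6.94 in Col-0 (difference 1.51, SE 0.19, adjusted p = 0.001478). SARD4, an enzyme of pipecolic acid synthesis in systemic resistance, averaged 7.15 in pvip1 pvip2 and 5.18 in Col-0 (difference 1.97, SE 0.27, adjusted p = 0.002065). The receptor gene EFR was 0.95 higher (adjusted p = 0.04404), and its adjusted p was 0.103 without Col-0 replicate 1, 0.105 without Col-0 replicate 2 and 0.0635 without Col-0 replicate 3. SAG101 was 1.09 higher without passing (adjusted p = 0.1094, and 0.0163 with the replicate block).

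Of 6 tested defensins, small antimicrobial peptides, 3 were lower and 1 higher in pvip1 pvip2, and PDF2.1 and PDF2.3 did not pass. PDF2.3 was at -0.84 (limma adjusted p = 0.05167, and 0.0339 with the replicate block). PDF2.2 averaged 8.99 in pvip1 pvip2 and 10.75 in Col-0 (difference -1.76, SE 0.29, limma adjusted p = 0.004843). PDF1.2, a marker of the jasmonate and ethylene response, averaged 3.84 in pvip1 pvip2 and 5.31 in Col-0 (difference -1.48, SE 0.29, adjusted p = 0.01106). PDF1.4 was 1.46 higher (adjusted p = 0.01475, and 0.0575 without Col-0 replicate 2). PDF1.2b, whose probe set is of the type that can bind related genes, was 0.92 lower, with means of 5.07 in pvip1 pvip2 and 5.99 in Col-0 (adjusted p = 0.03667), and its adjusted p was 0.0966 without Col-0 replicate 2 and 0.0511 to 0.119 without any 1 mutant replicate. HRA1 of the hypoxia list and SWEET15 of the senescence list differed by 0.22 and 0.06 and were not called. The means of HRA1, 3.95 in pvip1 pvip2 and 3.73 in Col-0, lay near the filter of 3.81. SWEET15 had an SE of 0.88, with pvip1 pvip2 arrays from 4.44 to 7.78. The named genes of the detoxification list (GSTU22 and GSTU25) and of the jasmonate list (THI2.1) were below the filter. No gene of the camalexin, floral organ, seed and embryo, or suberin lists was named here.

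The 8 genes lie on chromosomes 1 (2 genes), 2 (3 genes), 3 (2 genes) and 5 (1 gene), and none is next to another in the gene order of TAIR10.1. Of the 16 loci directly beside them 8 were named and 3 tested, and 1 was called. This was ATL40, the neighbour and relative of ATL41, with 6.25, 5.65 and 6.10 in pvip1 pvip2 against 4.72, 3.94 and 4.4 in Col-0 (difference 1.65, SE 0.25, limma adjusted p = 0.003777). Its genotypes did not overlap, and its Col-0 values lay around the level of 4.

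Within 5 genes on each side, 27 of 80 loci were tested, with 4 higher and 1 lower (18.5%, beside 20.5% over the array) and a median difference of -0.01. With the replicate block 5 were higher and 2 lower. A share this near that of the array is no result about the surroundings of the 8 genes, and the called neighbours are given as single values. The largest difference was that of AT3G13650, a dirigent-like gene 4 places from F6'H1, with 7.36, 7.66 and 7.52 in pvip1 pvip2 against 4.84, 4.63 and 5.56 in Col-0 (difference 2.5, SE 0.25, limma adjusted p = 0.0006443). Dirigent proteins guide the coupling of phenylpropanoid units into lignans. AT1G19020 was 1.47 higher (adjusted p = 0.01767, and 0.0628 without pvip1 pvip2 replicate 2). AT5G46270, of the TIR-NBS-LRR class of immune receptors, was 0.97 higher (adjusted p = 0.03845), with adjusted p of 0.0843 to 0.123 without Col-0 replicate 1 or 3 or pvip1 pvip2 replicate 2 or 3. The lower gene, AT3G13560, was at -0.84 (adjusted p = 0.02646), with adjusted p of 0.0524 to 0.0825 without any of those same arrays.

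**Figure D4:**
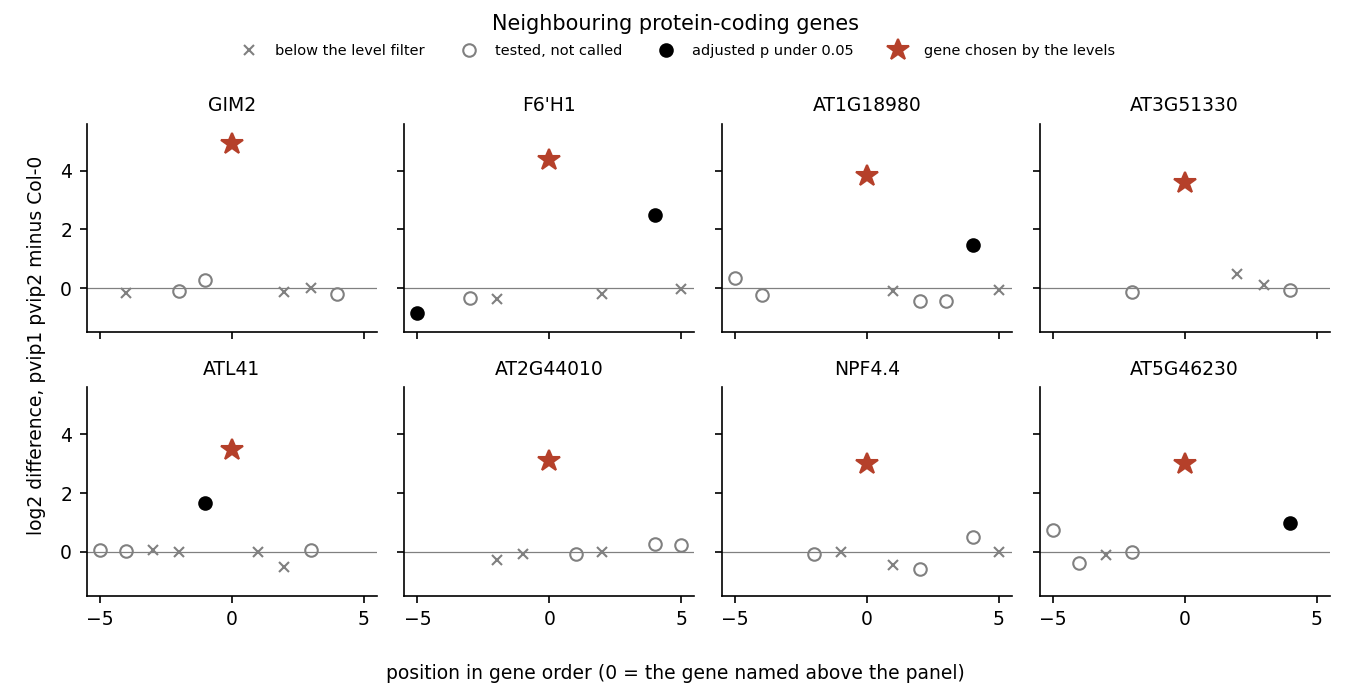
Log2 difference, pvip1 pvip2 minus Col-0, of each named protein-coding gene within 5 places of the 8 genes (stars), against its place in the gene order, with crosses for genes below the filter, open circles for tested genes and filled circles for called ones. Apart from ATL40 at 1.65, AT3G13650 at 2.5, AT1G19020 at 1.47, AT5G46270 at 0.97 and AT3G13560 at -0.84, the tested neighbours lie between -0.58 and 0.73.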

How the data were processed

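The deposited table holds log2 signals of 6 Affymetrix ATH1 arrays. Per the submitters' processing notes GCOS was used; the summarisation and normalization are not given in the sources used here. Genes were named through the platform's annotation (13513 probe sets with 1 gene, 503 with several), and gene order came from TAIR10.1. Probe sets with a mean of at least the 40th percentile (3.81) were kept, leaving 13648, and tested with limma 3.58.1 in R 4.3.3 (moderated statistics with a trend) without a block, with Benjamini-Hochberg adjustment and a threshold of 0.05. The procedure was also run on simulated data with independent noise and no pairing of replicates, and no result here rests on that run. Precision is limited by having 3 arrays of each genotype.

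The 8 genes and all gene lists were chosen with earlier results of these data known. The text names all 8 genes, the genes nearest the levels, and members of the lists and of the neighbouring loci. The labels give both genotypes replicate numbers 1 to 3. Deviations of same-numbered arrays from their genotype means correlated with r = 0.539, 0.311 and 0.121 for replicates 1, 2 and 3. A replicate block was fitted as an alternative. The main fit leaves such a pairing out and called 2803 probe sets, against 4129 with the block. The counts and p-values are those of the fit without the block. Blocked values are given beside the calls they change or with the alternatives at the end. Mutant arrays ran on fluidics modules 2, 4 and 2, and Col-0 arrays on 1, 3 and 1, so module and genotype cannot be told apart. Alternatives were other levels and filters, an added pseudocount of 64, equal array medians, array weights, no trend, the fluidics station, the replicate block and leaving out each array.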

Additional observations from a re-analysis of the deposited data

How the results depend on the processing

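The count of 8 genes depended on the levels: 3 with Col-0 under 3.5, 16 with Col-0 under 4.5, 19 with the mutant at 5.5 or more, 2 with the mutant at 7 or more, and 29 before names and families were considered. Leaving out each array gave 8 to 15. All probe sets called numbered 2803, against 1826 above the 60th percentile, 967 on the first fluidics station alone, 1661 to 2736 with an array left out and 4129 with the replicate block. Called genes of the family, coumarin and phenylpropanoid lists numbered 29, against 12 on the first station, 20 to 29 with an array left out and 38 with the block. Called genes of the defence and stress lists numbered 10, against 7 to 10 and, with the block, 12. The 1 called adjacent locus became 0 above the 60th percentile, 0 on the first station and 5 with 5 genes each side, and stayed 1 with any array left out. With 64 added, the differences of the 8 genes became 0.93 to 2.51; with an array left out they were 2.81 to 5.01. Of 43 called genes, 20 lost their call under no alternative that gave them a value. WRKY53, PDF1.2 and AT3G20015, 3 of those 20, lay below the 60th percentile filter, and the other 17 had a value under every alternative. No called difference reversed. The first station alone lost 22 calls. The table gives no detection calls, so whether a low signal lies over background is not known from it.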
